A study of Mus musculus with 26 samples.

Results

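The 150 transcripts with the highest translation efficiency (TE) in the caudate putamen of non-TG control and WT mice were examined. TE is the log2 ratio of the normalized footprinting mean to the normalized RNA-Seq mean of a transcript. Members were chosen by control and WT values. They had to be listed in each of the 3 deposited tables, here called the GS, the GS/DA and the KO table, with a control or WT RNA-Seq mean of at least 200 in each, and were ranked by the mean of the 3 control or WT TE values. Symbols starting with Zfp, Rpl, Rps or Nduf were left out. Of 9602 transcripts in at least 1 table, 8535 were in all 3, 5996 passed the RNA-Seq minimum and 5802 could be chosen, so the members are 2.59% of these. Of the 194 transcripts left out by symbol, 0 had a mean TE as high as the lowest member. Because control and WT values chose the members, these values are a description and nothing is read from their height.

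Ribosomes protect a short stretch of the mRNA they are reading from nuclease digestion, and the number of these footprints on a coding sequence (CDS) reflects how many ribosomes occupy it. Dividing footprints by RNA-Seq reads gives the ribosome load per mRNA, which depends on initiation, on elongation and on how evenly each assay captures a transcript. Structure in the 5′UTR, upstream ATGs and the bases around the start codon are known to influence initiation. The caudate putamen consists mostly of GABAergic projection neurons, with interneurons, glia and cortical and dopaminergic axons.

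All mice were C57BL/6 and 3 months old per the labels. GS LRRK2 TG mice carry G2019S LRRK2, a kinase-activating mutation found in familial Parkinson's disease, and GS/DA LRRK2 TG mice carry the same protein with the D1994A change, which removes kinase activity. Both transgenes are of the Tet-off type, silenced by doxycycline chow until weaning and induced by its withdrawal, and were driven by CaMKII-tTA, which is active in forebrain excitatory and striatal neurons, and each came from a founder line of its own. Non-TG control mice lack these transgenes, LRRK2 KO mice lack a working Lrrk2 gene, and WT mice are their controls. Each library was made from pooled mice of both sexes. The labels give 3 footprinting and 3 RNA-Seq libraries of non-TG control, 2 and 2 of each transgenic line, and 3 and 2 of WT and of LRRK2 KO striatum. The recovered control and WT means each held 2 libraries, and the remaining footprinting library of WT and of LRRK2 KO, like those of ventral midbrain, was not analysed here. Each table column is 1 normalized mean, and since the tables were scaled apart from each other, TE is compared only inside a table.

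Lrrk2 itself, on chromosome 15 from 91503606 to 91646551 of mm9, ranked 3836 by mean TE and is not a member. The authors' mean Lrrk2 footprinting value was 126 in LRRK2 KO and 545 in WT, and the RNA-Seq mean was 347 and 1006. The single LRRK2 KO libraries had 102 and 149.7 normalized Lrrk2 footprints (deeper and shallower library) against 400.3 and 690.1 in WT, without overlap, and the RNA-Seq values of 423 and 270.0 against 1278 and 733 did not overlap either. Footprints on Lrrk2 averaged 5186 in GS LRRK2 TG (control 2524) and 6017 in GS/DA LRRK2 TG (control 1335), while its RNA-Seq means were 1882 (control 2105) and 2721 (control 2897). In the GS/DA-table control, Lrrk2 RNA-Seq was 5233 in the deeper and 560.2 in the shallower library. Striatal markers were abundant. All 12 were listed in each table, and Ppp1r1b (DARPP-32), the most abundant of them, lay above 99.86% of transcripts by its control RNA-Seq mean in the GS/DA table. Of the 3 endothelial markers, 0 were listed. In bulk tissue, fewer cells of a type and less RNA per cell cannot be told apart.

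The libraries behind the means were unlike each other, which bears on every TE given here. A mean of 2 libraries can be split into the reads of each, and this was possible for 10 of the 12 columns. The 2 control columns of the GS table were not recovered. The libraries carry no replicate number and are called deeper and shallower by size factor. Between the 2 RNA-Seq libraries of a group, the SD of the log2 ratio over transcripts was 1.70 in GS LRRK2 TG, 1.44 in the GS/DA-table control and 1.69 in GS/DA LRRK2 TG, against 0.65 in WT and 0.63 in LRRK2 KO. Between footprinting libraries it was 0.33 to 0.42 in the transgenic tables and 0.70 to 0.72 in the LRRK2 KO table. The RNA-Seq difference went with CDS GC content across transcripts, with a Spearman rho of -0.79 in GS LRRK2 TG (deeper minus shallower, 5537 transcripts), -0.78 in the GS/DA-table control (5528) and 0.80 in GS/DA LRRK2 TG (5506). It was 0.01 in WT (5551) and -0.27 in LRRK2 KO (5553). Footprinting libraries differed with GC content too, at 0.59 in WT, -0.48 in GS/DA LRRK2 TG, -0.45 in the GS/DA-table control, 0.31 in GS LRRK2 TG and 0.27 in LRRK2 KO. Genes are not independent replicates, and these coefficients are a description. The cause of this difference was not tested, and main values are given with and without single libraries.

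The members' mean TE ran from 2.22 for Marcks to 1.00 for Naa50, with a median of 1.22 against -0.26 for all 5802 transcripts. Cdc40 and Naa50 were just inside, both at 1.00 (ranks 149 and 150), and Dner at 0.995 and Fam115a at 0.994 just outside. Among the 10 highest were Marcks, Hpcal1, Scoc, 2610002M06Rik, Scd3, Opcml, Csl, Necab1 and Cadm2. The transgenic tables weighed most. The median control TE of the members was 1.55 in the GS table, 1.74 in the GS/DA table and 0.33 in WT. The medians of all transcripts were -0.19, 0.03 and -0.62 in that order. The members' median thus lay 1.74, 1.71 and 0.95 above that of all transcripts of the same table. All 150 members lay among the 580 highest of 5802 in both non-TG control groups and 123 in WT.

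Marcks encodes an actin-binding substrate of protein kinase C. In the GS/DA-table control its footprinting libraries held 3994 and 4855 normalized reads (deeper and shallower) and its RNA-Seq libraries 150.5 and 889.8. In WT the footprinting values were 1935 and 1448 and the RNA-Seq values 491 and 1505. In LRRK2 KO, which the rule did not use, footprinting was 1237 and 1592 and RNA-Seq 462 and 559.9. Footprinting and RNA-Seq values are on scales of their own, so nothing is read from overlap between the assays. From the group means, Marcks had a TE of 0.76 in WT and 1.47 in LRRK2 KO. The medians of all 5802 transcripts were -0.62 and -0.61. Other cytoskeletal members by the function groups were Tuba3a, Dpysl2, Kif2a, Pls3, Actr2, Pafah1b1, Dynlt3 and Acta1. In the lists, the actin cytoskeleton had 0 of 18 as members and tubulins 1 of 16 (6.25%), beside 2.59% of all. Marcks has a CDS GC content of 75.4%, the highest of the members.

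Calcium handling was represented by 9 members, in groups of function assigned after the values were seen and without a count of all such genes. In the lists, calmodulin and calcium sensors had 3 of 12 as members, Na/K ATPase and calcium pumps 0 of 11, and voltage-gated calcium and sodium channel subunits 0 of 21, beside 2.59% of all. Hpcal1, Vsnl1 and Ncald are neuronal calcium sensors with EF hands, Necab1 is another EF-hand protein and Kcnip4 a calcium-binding subunit of A-type potassium channels. Ppp3ca and Ppp3r1 form calcineurin, the calcium-dependent phosphatase that dephosphorylates DARPP-32, and Camk4 and Camk1d are calmodulin-dependent kinases. Hpcal1 footprinting was 2799 and 2717 in the GS/DA-table control, with RNA-Seq at 148 and 516. Its WT values were 634 and 714 for footprinting and 214 and 625 for RNA-Seq. In LRRK2 KO, Hpcal1 footprinting was 897 and 650.4 and RNA-Seq 199 and 251. Necab1 footprinting was 4173 and 3317 in the same control, with RNA-Seq at 1657 and 119, a wide spread of the RNA-Seq libraries. Its LRRK2 KO footprinting was 1044 and 1083 and its RNA-Seq 407 and 431. The median mean TE of these 9 members was 1.26.

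Inhibitory and excitatory transmission was represented as well. Gabra2 and Gabrb2 are subunits of the GABA-A receptor chloride channel, Gad2 (GAD65) synthesizes GABA at terminals, and Slc1a2 (GLT-1) is the main glutamate transporter of astrocytes. Slc1a2 had footprinting at 14332 and 13366 and RNA-Seq at 4491 and 1212 in the GS/DA-table control. Its WT footprinting was 3775 and 1444, and its WT RNA-Seq 1799.9 and 3813, a wide spread in both assays. From the WT means its TE was -0.10, beside a median of -0.62 for all transcripts.

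Vesicle traffic held 15 members by the function groups, while the list of synaptic vesicle and release genes had 1 of 25 (4%, beside 2.59% of all). They include the Rab GTPases Rab3c, Rab14, Rab18, Rab1, Rab5a and Rab6, the Rab escort protein Chm, the early endosome tether Eea1, clathrin heavy chain Cltc, Arf4, the adaptor subunit Ap1s2 and Syt4. Of 11 transcripts in a list of LRRK2 and Rab proteins it phosphorylates, Rab3c and Rab5a were members (18.2%, beside 2.59% of all). Ranks in that list ran from 18 to 5209, with a median of 1386. The 14-3-3 proteins, phosphoserine-binding adaptors, had 3 of 6 listed as members (50%, beside 2.59% of all), namely Ywhab, Ywhaz and Ywhag. Their list ran from rank 55 to 1257. Of the Ywhaz CDS, 96.9% of 28-base stretches have another copy in the genome, so how its reads were assigned is uncertain. Over 20% of the CDS was copied in this way in 26 of 142 matched members (18.3%, beside 11.2% of all), among them Ube2v2 (100%), Hnrnpa3 (97.75%), Hsp90aa1 (92.9%), Scoc (69.2%), Ddx5 (64.3%), Tuba3a (53.3%), Scd3 (37.6%), Scd1 (37.5%), Aldoart1 (37.2%), Hpcal1 (33.3%), Actr2 (33.1%), H2afx (31.6%), Rab5a (26.9%), Pafah1b1 (25.5%), Rab6 (22.3%) and Scd4 (21.8%), and their values carry the same uncertainty.

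Ermn, an oligodendrocyte cytoskeletal protein, was a member, while the oligodendrocyte markers Mbp and Mag ranked 2778 and 2419. The membrane protein Gpm6b had a TE of 1.86 in the GS/DA-table control, where the median of all transcripts was 0.03. In WT its TE was -0.43 and that median -0.62, so its rank rests mostly on the transgenic tables.

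Further members belonged to the ubiquitin pathway (8, among them Ube2v2, Ube2a, Ubqln2, Cul4b and Usp14), RNA-binding proteins and helicases (9, among them Hnrnpa3, Hnrnpa0, Matr3, Ssb, Ncl and Ddx5), and chromatin and transcription factors (10, among them Foxp2, Mef2a, Mef2c, Id4 and H2afx). In the lists, ubiquitin and ubiquitin-like genes had 2 of 37 as members (5.41%), and splicing factors and hnRNPs 2 of 48 (4.17%). RNA polymerase and homeobox or helix-loop-helix transcription factors had 2 of 29 (6.90%) and histones 1 of 8 (12.5%), beside 2.59% of all. Lipid metabolism, which had no list, gave 8, with the stearoyl-CoA desaturases Scd1, Scd3 and Scd4, which resemble each other in sequence. Gnal, the G protein that couples striatal dopamine and adenosine receptors to adenylyl cyclase, was 1 of 19 listed striatal neuron markers and the only member among them, while Drd2 ranked 5674 and Adora2a 5383. Hsp90aa1, Atp6v1a, Atp5g3, Gnaq, Slc7a14 and Slc2a13 were members from other lists. Gapdh was a member through 1 of several ids with that symbol, so its value belongs to that id only. Of 41 lists, 21 held 0 members, including the proteasome (0 of 29), mitochondrial ribosomal proteins (0 of 47), translation factors and other TOP transcripts (0 of 34) and aminoacyl-tRNA synthetases (0 of 21), and at a share of 2.59% lists of this size would hold few members. In all, 31 members were in a list, 98 were given a function group and 52 were given none.

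TE in the genotype groups came from libraries the rule did not use. The members' median TE was 1.799 in GS LRRK2 TG against -0.17 for all 5802, 1.55 against -0.04 in GS/DA LRRK2 TG, and 0.74 against -0.61 in LRRK2 KO. All 150 members lay above the median of all transcripts in each of these groups. In GS LRRK2 TG 107 were among the 150 highest, in GS/DA LRRK2 TG 104 and in LRRK2 KO 74. The 580 highest held 150, 149 and 131 members in that order.

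**Figure D1:**
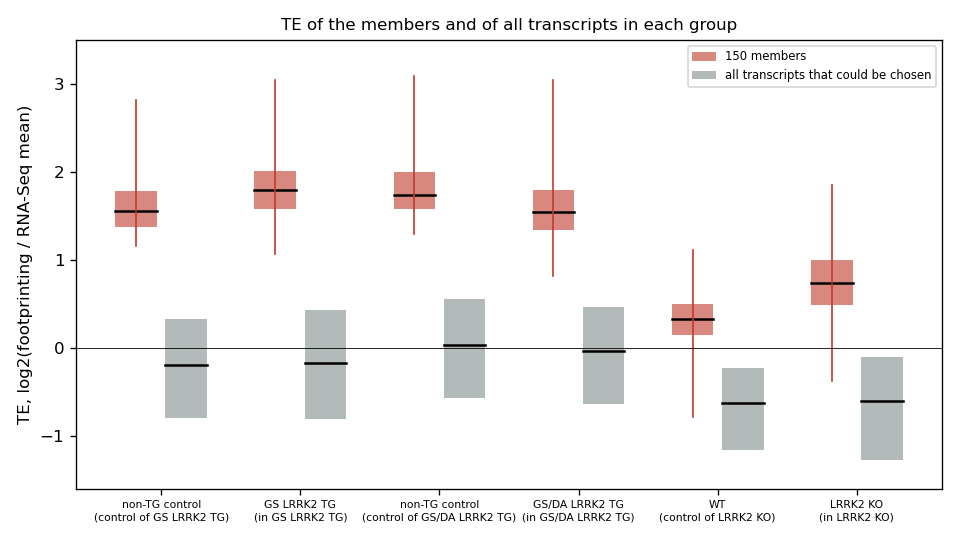
TE (log2 of footprinting over RNA-Seq mean) in the 6 groups, with boxes from the lower to the upper quartile, black lines at medians and thin lines from the lowest to the highest member. Members (red) have medians of 0.33 to 1.799, and all 5802 transcripts (grey) have medians of -0.62 to 0.03. Control and WT values chose the members.

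Ranks from single libraries were much less stable than this. For each of 5 groups, TE was computed from each of 4 pairs of 1 footprinting and 1 RNA-Seq library. Between 83.9% and 100% of resolved members were above the median of all transcripts in each pair. Only 11 to 81 of them were among the 150 highest, however. With the deeper RNA-Seq library of the GS/DA-table control, 16 (deeper footprinting) and 15 (shallower) of 136 members were among the 150 highest, and with the shallower RNA-Seq library 52 and 47. In LRRK2 KO the 4 pairs gave 34, 81, 58 and 57 of 149 members. TE correlated with CDS GC content at a rho of 0.25 and 0.34 with the deeper RNA-Seq library of the GS/DA-table control and at -0.66 and -0.62 with the shallower.

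**Figure D2:**
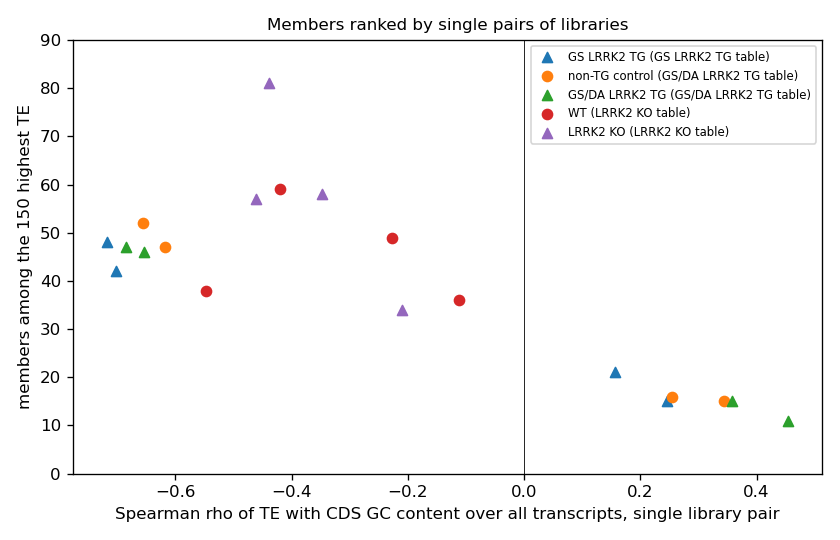
Number of members among the 150 transcripts with the highest TE (y axis) against Spearman's rho of TE with CDS GC content over all transcripts (x axis), 1 point per pair of libraries. Circles are groups that chose the members and triangles are groups that did not. The counts run from 11 to 81, and the 6 pairs with a rho above 0 have counts of 11 to 21.

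The 5′UTR folding energy, in kcal/mol, where a lower value means a more stable structure, was close to that of all transcripts. Its median was -93.75 for the members and -98.15 for all 5802, with quartiles of -152 and -54.0 against -188 and -44.9. Under -250 kcal/mol lay 15 members (10%) against 14.96% of all, and above -20 lay 13 (8.67%) against 10.6%. Members thus spanned the range from -959 for Ccrn4l, also called nocturnin, to -3.7 for Chm. Opcml, a cell adhesion molecule, had -479 and Trim23 -509. Across transcripts mean TE and folding energy had a Spearman rho of 0.20 (5802 transcripts).

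The GENCODE annotation of NCBIM37, the same assembly as mm9, matched 142 of the 150 members (94.7%) and 95.7% of all. The members' median CDS was 1230 bases against 1593 for all, and their CDS GC content 47.1% against 53.2%. Below 45% GC were 52 members (36.6%) against 9.54% of all, and 5 members (3.52%) had a CDS over 3000 bases against 19.5%. The median 3′UTR was 2043.5 bases against 950.0, and the median 5′UTR 230.5 against 180.0. An ATG-free 5′UTR was found for 91 of 137 members (66.4%) and for 48.2% of all. The X chromosome carried 16 members (11.3%) against 3.26% of all, among them Ubqln2, Gpm6b, Ube2a and Ap1s2. The CDS GC content and CDS length moved with 1 library. UTR lengths, the shares of ATG-free 5′UTRs and of the X chromosome, and start codon contexts were not recomputed without single libraries. Without the shallower RNA-Seq library of the GS/DA-table control, the 150 transcripts chosen in the same way included 82 of the members and had a median CDS GC content of 54.7% and a median CDS of 972 bases. Without the deeper one they included 91 and had medians of 43.9% and 1821 bases. Chosen from the KO table alone, the 150 highest had a median CDS GC content of 45.8%, and from the GS table alone 47.4%. Which library is closer to the tissue was not tested.

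Start codon contexts are shown for the 5 members of highest mean TE, because the bases at positions -3 and +4, counted with the A of the start codon as +1, influence recognition by the scanning ribosome. An A stood at -3 in 77 of 136 members (56.6%) and in 47.5% of all, and a G at +4 in 62 (45.6%) and in 51.6% of all. A or G at -3 together with G at +4 was found in 39.7% of members and 44.9% of all. The sequences run 5′ to 3′ on the coding strand of NCBIM37, with the start codon in capitals, which lies on chr10:36858339-36858341 (minus strand) for Marcks, chr12:17792977-17792979 (plus strand) for Hpcal1, chr8:85982236-85982238 (minus strand) for Scoc, chrX:105011487-105011489 (minus strand) for 2610002M06Rik and chr19:44278011-44278013 (plus strand) for Scd3.
Marcks: agaagccagcATGggt
Hpcal1: gccagctgccATGggc
Scoc: ggcattgctcATGagc
2610002M06Rik: tcgagagatcATGtcg
Scd3: aagaaccagcATGcca

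The control side of each TE difference between genotype and control chose the members, so the values are a description, and nothing is read from their direction or from the assay that carries them. In GS LRRK2 TG the members' median TE difference was 0.21 (all transcripts 0.02), with 0.05 for footprinting and -0.18 for RNA-Seq. At or above 0.5 were 10 members (6.67%), beside 3.32% of the table, and at or below -0.5 were 0, beside 0.257%. Footprinting rose by 0.5 or more in 0 members (0.14% of the table) and fell so far in 0 (0.198%), and RNA-Seq rose in 2 (0.233%) and fell in 9 (2.72%). In GS/DA LRRK2 TG the median was -0.15 (all -0.05), with -0.01 for footprinting and 0.19 for RNA-Seq. At or below -0.5 were 15 members (10%), beside 2.31%, and at or above 0.5 were 0, beside 0.07%. Footprinting rose in 3 members (0.49% of the table) and fell in 0 (0.326%), and RNA-Seq rose in 13 (2.46%) and fell in 0 (0.257%). Both transgenic comparisons draw on the same group of non-TG control libraries, so they are not independent of each other, although which of these libraries entered which table is not stated. In LRRK2 KO the median was 0.41 (all 0.02), with 0.02 for footprinting and -0.38 for RNA-Seq. At or above 0.5 were 48 members (32%), beside 4.06%, and at or below -0.5 were 0, beside 2.75%. Footprinting rose in 0 members (1.0% of the table) and fell in 0 (1.07%), and RNA-Seq rose in 0 (0.669%) and fell in 46 (2.51%).

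These medians moved with single libraries of both assays. In LRRK2 KO the median difference was -0.01 without the shallower WT RNA-Seq library and 0.75 without the deeper one, with 2 and 107 members at or above 0.5. In GS LRRK2 TG it was -0.33 without its shallower RNA-Seq library and 1.24 without its deeper one. In GS/DA LRRK2 TG it was 0.13 and 0.87 without the shallower control or shallower transgenic RNA-Seq library, and -0.80 and -0.78 without the deeper ones. Leaving out 1 RNA-Seq library turned the direction in both transgenic comparisons and left almost no difference in LRRK2 KO. The LRRK2 KO median was 0.20 without the deeper and 0.64 without the shallower WT footprinting library, with 36 and 95 members at or above 0.5. In GS/DA LRRK2 TG it was -0.26 without the shallower control and -0.27 without the deeper transgenic footprinting library, and in GS LRRK2 TG 29 members were at or above 0.5 without the deeper footprinting library.

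**Figure D3:**
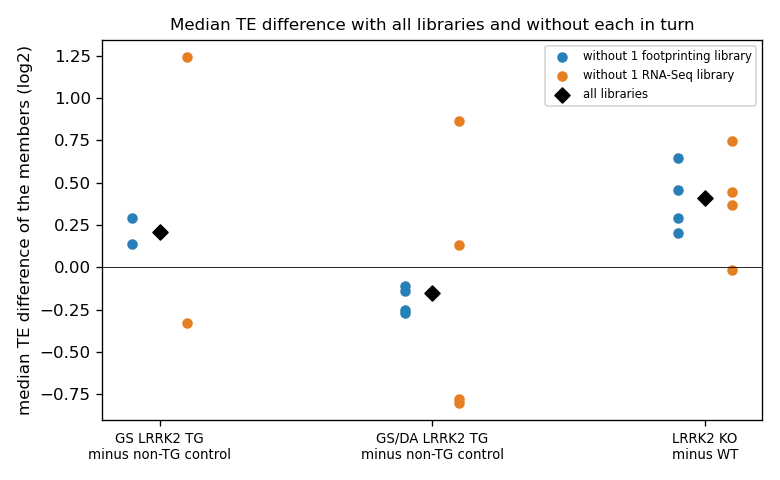
Median TE difference of the members (log2, genotype minus control) in the 3 comparisons, with all libraries (diamonds) and without 1 footprinting (blue) or 1 RNA-Seq (orange) library in turn. All libraries gave 0.21, -0.15 and 0.41, and leaving out an RNA-Seq library moved these to between -0.33 and 1.24, between -0.80 and 0.87, and between -0.01 and 0.75. For the GS comparison no control library could be left out.

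Among members with all 4 means of a table at 500 or more, the highest TE differences in LRRK2 KO were those of Acta1 (0.83), Gapdh (0.81) and Slc1a2 (0.79), and the lowest those of Gprin3 (0.09), Hnrnpa3 (0.04) and Ncl (-0.02). The Slc1a2 footprinting mean was 2823 in LRRK2 KO and 2610 in WT, and its RNA-Seq mean 1759 and 2806. In GS LRRK2 TG the highest named were Gpm6b (0.66) and Ncl (0.52) and the lowest Aldoart1 (-0.17), Dpysl2 (-0.19) and Acta1 (-0.26). The Gpm6b footprinting mean was 10058 against 10019 in control, and its RNA-Seq mean 1915 against 3016. In GS/DA LRRK2 TG the highest were Acta1 (0.22), Tuba3a (0.21) and Prepl (0.05) and the lowest named Hsp90aa1 (-0.64) and Ssb (-0.92). Ssb, the La protein that binds the ends of RNA polymerase III transcripts, had footprinting means of 3123 against 3348 and RNA-Seq means of 1430.1 against 811. On the single libraries, limma gave an interaction of -0.40 with an SE of 1.904 for Ssb, so its value is uncertain. Acta1, Aldoart1 and Tuba3a have close relatives that are abundant in brain, so their counts are uncertain, as are those of Hsp90aa1 and Hnrnpa3 for their copied CDS and that of the Gapdh id, which had no annotation match and may be a copy.

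The interaction of genotype and assay was tested with limma on the recovered libraries, with Benjamini-Hochberg adjustment over all transcripts fitted. In GS/DA LRRK2 TG 0 of 8407 transcripts passed an adjusted p of 0.05 (0% called), and 0 of 133 members fitted. At an unadjusted p under 0.05 were 0 transcripts. In LRRK2 KO 0 of 9533 transcripts passed (0% called), and 0 of 148 members, with 4 transcripts and 0 members at an unadjusted p under 0.05. The libraries are pools, and the test measures the spread between 2 of them per group and assay. Lrrk2 had an interaction of -0.51 with an SE of 0.59 in LRRK2 KO and of 2.40 with an SE of 2.04 in GS/DA LRRK2 TG. GS LRRK2 TG could not be tested in this way.

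Markers of other cells differed between the groups too. The summed RNA-Seq mean of the astrocyte markers was 4287 in LRRK2 KO against 5613 in WT. It was 9160 in GS/DA LRRK2 TG against 7783 in its control, and 6989 in GS LRRK2 TG against 7080. Slc1a2, a member, was the most abundant astrocyte marker, and the LRRK2 KO and GS/DA shifts in these sums came largely from it. Its RNA-Seq level went from 2806 (WT) to 1759 (LRRK2 KO), and its WT libraries had a wide spread. From control to GS/DA LRRK2 TG it went from 2851 to 3761. Aldh1l1 alone rose in LRRK2 KO (442 to 464), and Gja1 alone fell in GS/DA LRRK2 TG (1012 to 992). A shift of astrocyte markers as a group is therefore not read from the sums. The summed RNA-Seq mean of the listed cortical markers was 3219 in GS/DA LRRK2 TG against 1440 in its control, 1071 in GS LRRK2 TG against 1851, and 2933 in LRRK2 KO against 3507, with Slc17a7 the most abundant. The choroid plexus and blood markers Ttr and Hbb-b1 summed to 7755 in GS/DA LRRK2 TG against 11917, to 5980.1 in GS LRRK2 TG against 8218, and to 1197 in LRRK2 KO against 1663. In GS LRRK2 TG, Ttr was 1202 against 4451 and Hbb-b1 4778 against 3767. The part of these markers in the members' values was not tested.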

How the data were processed

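Ribosome footprinting and ribosome-depleted RNA-Seq of striatum were analysed within the 3 tables. The authors aligned reads to mm9 (TopHat2 2.0.11, Bowtie2 2.2.2), used CASAVA 1.8 and DESeq 1.20 per their processing notes, and counted CDS reads over all isoforms. Their deposited means per group are signal values with no spread given. The 5′UTR folding energy deposited by the authors is a score in kcal/mol, the lowest over isoforms. The TE, TE difference and *z* score columns hold the authors' own comparisons and were not used.

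TE was computed without a pseudocount. The fold used as a call was 0.5 on the log2 scale. Each mean was split into whole reads of 2 libraries as a sum of multiples of 2 step sizes, and transcripts whose mean fitted a single pair within its rounding were kept. Where several bases gave the same steps, the one with equal normalized medians was taken, and a column counted as recovered if at least 90% of its means resolved. This resolved 98.5% to 99.96% of transcripts per recovered column and 0.126% to 0.991% after the means had been shifted by a constant. The splitting was checked on simulated data. It cannot tell libraries apart when their size factors stand in a ratio of small whole numbers, and simulated columns of that kind, or of 3 libraries, were returned as not recovered after a minimum share was added. Recovered libraries held 2865413 to 19296452 footprints and 3131554 to 14544748 RNA-Seq reads in the CDS. Ratios of single libraries used a pseudocount of 0.5, and a transcript without resolved reads kept its group mean where 1 library was left out of the ranking.

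limma 3.58.1 (R 4.3.3) was fitted on the log2 of normalized reads plus 10, with terms for genotype, assay and the interaction of both. CDS length, GC content and start codons came from the transcript with the longest CDS, for symbols with 1 id and 1 gene, in the GENCODE annotation of NCBIM37. Other work used Python 3.11.15 with pandas and numpy. Copies were exact matches of 28-base stretches elsewhere in the genome.

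Named are members among the 10 highest, 2 on each side of the threshold, the 3 highest and 3 lowest TE differences per comparison among members with 4 means of at least 500, Lrrk2, list members and cell type markers. Transcripts with a date for a symbol are not named. Other members named for their role, folding energy or chromosome were chosen after their values were seen, as were the groups of function. The members and lists were chosen with earlier results of these data known.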

Additional observations from a re-analysis of the deposited data

How the results depend on the processing

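Each library is a pool, each group and assay has 2 recovered libraries at most, and the members were chosen from means in which RNA-Seq libraries differ strongly. Where a value moved, the cause was not tested. Of 242 values under all settings, 144 stayed within a wide tolerance (1 SD between libraries or tables for a median, 1.5 times for a count), 94 moved beyond it and 4 changed sign, 1 of them only to about 0. No paired analysis was possible because the columns carry no replicate number, so the replicate block was not run, and a library batch block read from the values was fitted as an alternative. The TE difference deposited by the authors was not used, and single libraries of the GS-table control were not available. The setting without copied CDS, which kept 124 members, and the single library pairs of the genotype groups were chosen after the data were seen.

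Of the 150 members, 79 remained with an RNA-Seq minimum of 500, 67 with the KO table alone, and 82 to 145 with 1 library left out. Single control pairs of the GS/DA table, given as deeper footprinting with deeper and shallower RNA-Seq and then shallower footprinting with both, kept 16, 52, 15 and 47, and WT pairs in that order 36, 49, 59 and 38. The median folding energy was -86.4 with the KO table alone, -99.1 to -80.8 with 1 library left out, -80.5, -80.95 and -107.6 in control pairs 1, 3 and 4, and -83.5, -85.9, -85.2 and -101.1 in WT pairs. The median CDS was 1524 bases with the KO table alone, 972 to 1821 with 1 library left out, 906 with the shortest CDS per gene, 966, 2496, 1057.5 and 2496 in control pairs, and 1407 and 2859 in WT pairs 3 and 4. The median CDS GC content was 46.1% and 48.4% with RNA-Seq minimums of 100 and 500, 45.8% with the KO table alone, 43.9% to 54.7% with 1 library left out, 59.0%, 43.0%, 59.6% and 43.5% in control pairs, and 53.1%, 52.5%, 46.0% and 43.9% in WT pairs.

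With 1 library left out the median TE difference ran from -0.33 to 1.24 in GS LRRK2 TG, from -0.80 to 0.87 in GS/DA LRRK2 TG and from -0.01 to 0.75 in LRRK2 KO. Its sign changed to -0.33 without the shallower GS LRRK2 TG RNA-Seq library, to 0.13 and 0.87 without the shallower control or GS/DA LRRK2 TG RNA-Seq library, and to -0.015 without the shallower WT RNA-Seq library. Members at or above the fold in GS LRRK2 TG were 40 at a fold of 0.3, 0 at 1, 3 among those with means of at least 500 and 10 to 110 with 1 library left out, and members below minus the fold were 3 at 0.3 and 1 to 49. In GS/DA LRRK2 TG members below minus the fold were 42 at 0.3, 0 at 1 and 7 to 94 with 1 library left out, and those above were 1 to 89. In LRRK2 KO members above the fold were 105 at 0.3, 1 at 1, 15 among those with means of at least 500 and 2 to 107 with 1 library left out, and those below were 0 to 10. With 1 library per assay the members' median TE lay 1.21 to 3.16 above that of all transcripts in GS LRRK2 TG (main value 1.97), 0.88 to 2.69 in GS/DA LRRK2 TG (1.59) and 1.26 to 1.53 in LRRK2 KO (1.35). limma called 0 transcripts in all settings, including a library batch block, under which 34 transcripts in GS/DA LRRK2 TG and 186 in LRRK2 KO had an unadjusted p under 0.05, among them 0 of 133 and 11 of 148 members. Without the deeper WT RNA-Seq library 137 transcripts in LRRK2 KO, among them 19 members, were under it.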
